A study of Mus musculus with 8 samples.

Results

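Receptors for the monoamines serotonin, dopamine and noradrenaline and for acetylcholine were examined in nuclear RNA of cortical GABAergic neurons. The genes were chosen by name, as protein-coding genes whose symbols mark them as serotonin (Htr), dopamine (Drd), adrenergic (Adra, Adrb), muscarinic (Chrm) or nicotinic (Chrna, Chrnb) receptors. This gave 46 genes among the 55450 listed. Of these, 35 had 10 or more counts in at least 3 of the 7 tables used and are described throughout, and 11 fell under that minimum. The 35 comprised 11 serotonin, 3 dopamine, 7 adrenergic, 4 muscarinic and 10 nicotinic receptor genes.

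The libraries came from the cerebral cortex of juvenile mice in which a Cre driver, whose gene the labels do not name, acted in GABAergic neurons, which inhibit other neurons of the cortex. In both groups Cre switched on a nuclear fluorescent reporter by which nuclei were sorted, each library from 1 cortex. The 4 controls had the genotype Thra+/+. The mutants had the genotype Thra+/AMI, in which Cre also switches on a Thra allele for a thyroid hormone receptor with dominant-negative action. Of 4 mutant tables, that of mutant 10 held the same count as that of mutant 7 in all 21975 genes with a count and a symbol of their own. With no difference at all, and so less than sampling noise, both tables count as a single sample, called mutant 7, which left mutants 6, 7 and 8. Which of the 2 animals gave these counts is not known.

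Nicotinic receptors are channels of 5 subunits opened by acetylcholine, and the serotonin receptor subunits Htr3a and Htr3b also form a channel. All other receptors here act through G proteins. In the cortex these receptors let fibres from the basal forebrain, raphe, locus coeruleus and midbrain set the excitability of interneurons, and classes of interneuron differ in the receptors they carry. Thyroid hormone receptors bind DNA at repeats of the hexamer AGGTCA and change transcription with the hormone they bind.

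Total counts ran from 10747169 to 13804734 per library. Thra itself was at 108, 126, 119 and 105 CPM in controls 1 to 4 and at 77.6, 96.3 and 88.6 CPM in mutants 6, 7 and 8 (log2 fold change -0.39, SE 0.11, adjusted p 0.0543). CPM are counts scaled to each library's total after TMM adjustment, fold changes are mutant over control, and p-values are from edgeR, adjusted over all tested genes, with a gene called at an adjusted p under 0.05. The GABAergic markers Gad1 (569 ± 63.2 CPM in controls, SD, n = 4) and Gad2 (403 ± 15.1) were high, while Dlx1 and Dlx6 were at 0 in every library. Their whole spans are shared with other genes, and all 1351 protein-coding genes of that kind were at 0 in every table, including all 684 that share no exon base with another exon. Of the protein-coding genes with part of their span shared 5.47% were at 0 throughout, and of those with none shared 24.7%. A 0 of a gene inside another gene therefore says nothing of its expression here, and counts of partly shared genes may cover only part of the gene. The 5 receptor genes called below share no span. Markers of interneuron classes moved with the genotype, where 4.78% of all tested genes were called lower and 4.63% higher. In the parvalbumin list 5 of 11 genes were called lower and 1 higher, with a summed level of 4610 to 7301 CPM in controls and 5762 to 7016 CPM in mutants. Most of that sum came from Erbb4 (2460 to 4082 CPM in controls) and Kcnc2 (1093 to 1961), neither of them called, so it does not follow Pvalb itself. In the somatostatin list 3 of 9 were called higher and 2 lower, with sums of 1232 to 1318 and 1628 to 1968 CPM. The part of such shifts in the results below was not tested, and in bulk nuclei fewer cells of a type and less RNA per cell cannot be told apart. The controls also spread with gene length. Among the 35 receptor genes, all 8 that span over 100 kb were higher in control 4 than in control 1, by log2 0.61 to 1.63 (median 0.85). The 7 that span under 10 kb had a median of -0.66, and Spearman's rho between ratio and span was 0.64 across the 35 genes, which share both libraries. For mutant over control, rho with span was 0.05 across these genes. Their median log2 fold change was -0.31 over 100 kb and 0.01 under 10 kb.

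**Figure D1:**
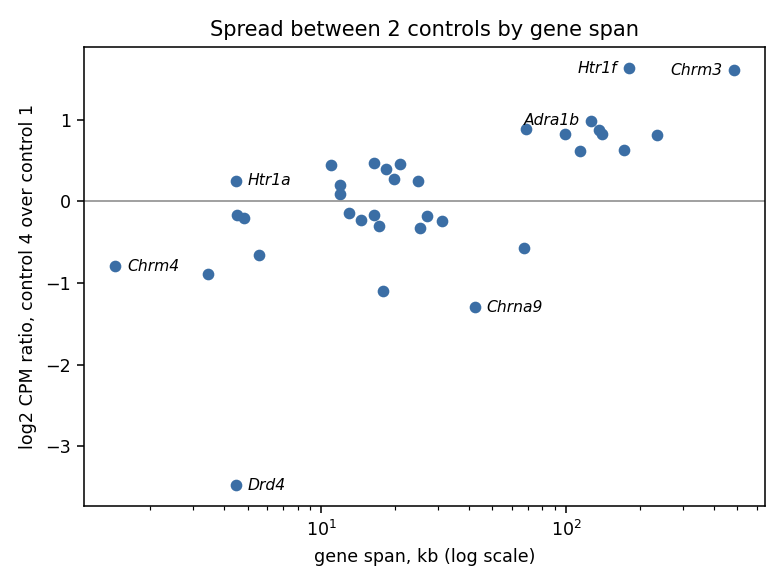
The log2 ratio of CPM in control 4 over control 1 (vertical axis) against gene span in kb (horizontal, log scale) for the 35 receptor genes, 1 point each. All 8 genes over 100 kb lie above 0, and Drd4, with 3 counts in control 4 and 34 in control 1, lies lowest.

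Few receptor genes were called between the genotypes. Of the 35 genes 5 were called, or 14.3%, against 9.42% of the 16448 tested genes. Chrna5, Chrnb1 and Adra1a fell in the mutants (3 genes, where 4.78% of all genes were called lower), and Htr7 and Chrnb3 rose (2 genes, where 4.63% were called higher). With 5 genes this share of calls is close to the background. The median log2 fold change was 0.01 over the 35 genes and -0.01 over all tested genes. An unadjusted p under 0.05 was found for 14 of the 35, a larger share than the 22.5% of all tested genes. For 12 of the 35 the CPM ranges of the groups were separate, 7 lower and 5 higher. This was also a larger share than in all tested genes, at 22.0% (10.7% lower and 11.2% higher). Whether these shares differ beyond chance was not tested.

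**Figure D2:**
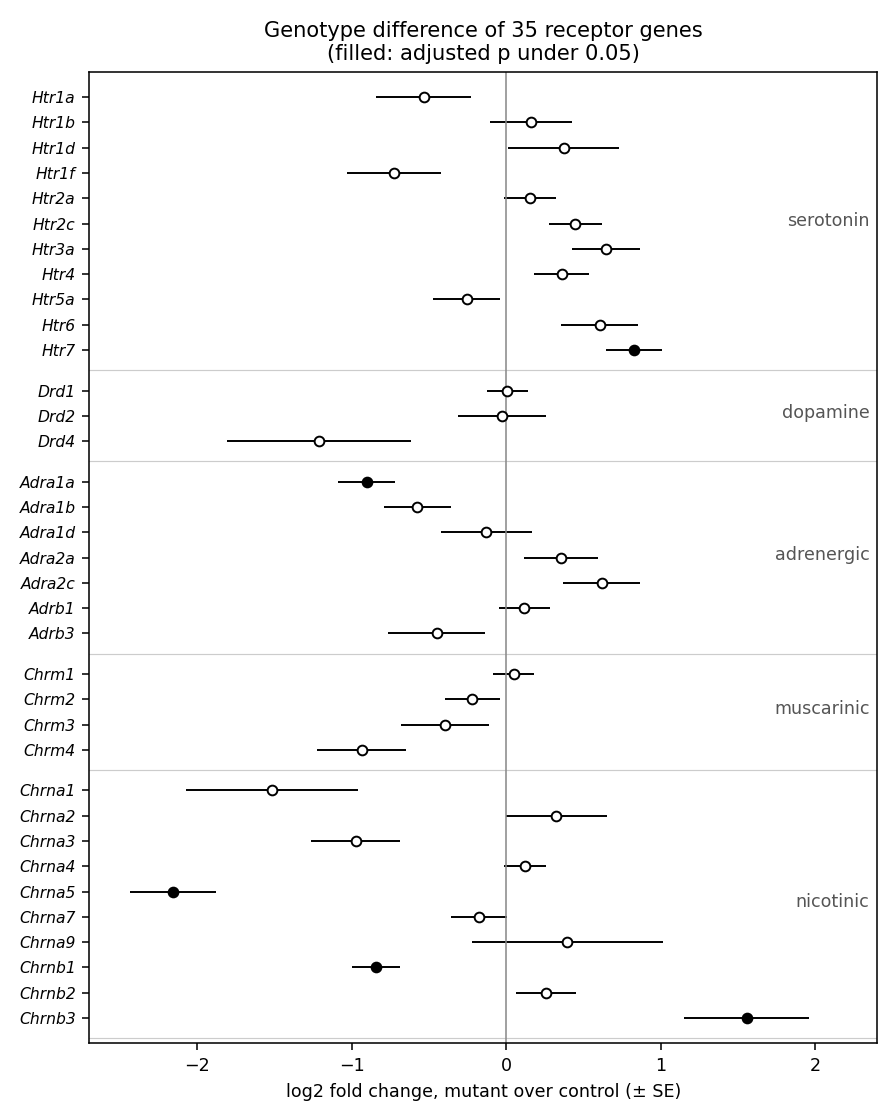
Log2 fold change of mutant over control with its SE (horizontal axis) for the 35 receptor genes, grouped by family. Filled points mark the 5 genes with an adjusted p under 0.05, which are Htr7 and Chrnb3 on the right and Adra1a, Chrnb1 and Chrna5 on the left.

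Nicotinic subunits held 3 of the 5 calls, 2 lower and 1 higher among 10 genes (30%, against 9.42% of all tested genes). Whether this share differs beyond chance was not tested. The family median was -0.03. Chrna5 encodes an accessory subunit that joins receptors built on other alpha and beta subunits and alters their calcium permeability and desensitization. It was at 4.76, 5.29, 4.87 and 4.19 CPM in controls 1 to 4 and at 1.10, 0.826 and 1.25 CPM in mutants 6, 7 and 8, from 52 to 70 and from 9 to 16 counts. Every mutant was thus far under every control. Chrna5 fell 4.46-fold (log2 fold change -2.16, SE 0.28, adjusted p 0.000494), the largest change of the 35 genes, and stayed called in all 14 other fits, at log2 fold changes from -2.29 to -2.01.

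Chrna5 lies in a cluster on chromosome 9 with Chrna3 and Chrnb4, subunits that form the ganglionic type of receptor. Chrna5 (54980880 to 55007779, plus strand, GRCm38) ends 2.33 kb from the end of Chrna3 (55010111 to 55026562, minus strand), and Chrnb4 (minus strand) ends 1.59 kb beyond the start of Chrna3. Chrna3 was at 4.52, 4.84, 4.34 and 4.03 CPM in controls and at 3.13, 1.38 and 2.19 CPM in mutants. These values did not overlap, but the gene just missed the threshold (log2 fold change -0.98, SE 0.29, adjusted p 0.0559). It was called in 5 of the 7 fits with other settings, such as DESeq2 (adjusted p 0.0304). Of the 7 fits that left out 1 library it was called in 2, without control 4 (0.0375) or mutant 6 (0.0434). Without mutant 7 the adjusted p was 0.222. Chrnb4 had 6, 1, 0 and 2 counts in controls and 0 in each mutant, where a count of 0 allows up to 3 counts, or 0.279 CPM at the lowest total. It was too sparse to be compared.

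The bases before the starts of these neighbours and of the called genes Chrnb1 and Htr7 are shown so that 3 called genes, and Chrna3 as the neighbour of Chrna5, can be read for the receptor's hexamer. Sequences are from RefSeq (GRCm38.p6), 5′ to 3′ on the gene's strand, cut where either RefSeq or GENCODE starts the transcript; those of Adra1a and Chrnb3 were not analysed here.
Chrna5: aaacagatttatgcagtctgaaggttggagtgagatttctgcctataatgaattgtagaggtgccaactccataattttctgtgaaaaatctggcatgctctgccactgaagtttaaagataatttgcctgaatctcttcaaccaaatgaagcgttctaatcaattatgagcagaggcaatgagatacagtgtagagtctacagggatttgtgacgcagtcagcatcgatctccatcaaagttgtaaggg
Chrna3: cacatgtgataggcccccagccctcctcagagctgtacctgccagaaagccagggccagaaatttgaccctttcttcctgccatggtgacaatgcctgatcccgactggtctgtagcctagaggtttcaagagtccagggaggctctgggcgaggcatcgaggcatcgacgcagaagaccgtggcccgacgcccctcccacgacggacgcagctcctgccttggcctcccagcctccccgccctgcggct
Chrnb1: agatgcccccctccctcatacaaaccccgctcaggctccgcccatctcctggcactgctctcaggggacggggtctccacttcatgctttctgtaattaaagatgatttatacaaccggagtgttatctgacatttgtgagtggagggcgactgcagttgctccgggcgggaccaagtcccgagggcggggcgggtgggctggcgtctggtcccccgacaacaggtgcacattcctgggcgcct
Htr7: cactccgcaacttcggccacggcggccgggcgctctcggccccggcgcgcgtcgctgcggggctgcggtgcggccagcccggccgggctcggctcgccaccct
They lie at chr9:54980630-54980879 (plus), chr9:55026563-55026812 (minus), chr11:69795944-69796187 (minus) and chr19:36057508-36057610 (minus). The hexamer AGGTCA, searched on both strands, would be in capitals, and none of the 4 stretches holds it. The stretches differ in composition, with 3 CpG in the 250 bases of Chrna5 and 13 in the 250 bases of Chrna3, and with a GC content of 40% and 63.2%. RefSeq lists a further start of Chrna5 inside the gene, and the window of that start holds the hexamer 242 bases before it, at chr9:54981238-54981263 (plus), where capitals mark it.
Chrna5 inner start: caaaacagAGGTCAggacagtcttcg
In windows from 250 bases before to 50 after a start, 6 of 32 windows of 27 matched receptor genes (18.8%) hold AGGTCA, and 5340 of 32851 windows of all genes do (16.3%). A direct repeat of AGGTCA with 4 bases between is in none of the 32 and in 5 of all windows. A match is a description of letters, not of a bound site.

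Chrnb1 encodes a beta subunit best known from the receptor of the neuromuscular junction. It was at 17.7, 15.8, 18.0 and 20.3 CPM in controls and at 10.6, 9.73 and 9.62 CPM in mutants. The groups stood well apart and each was tight. Chrnb1 (chromosome 11, 69784036 to 69795943, minus strand) fell 1.80-fold (log2 fold change -0.85, SE 0.16, adjusted p 0.00473) and was called in all 14 other fits. Chrna1, the alpha subunit of the same junctional receptor, was at 0.645 to 1.13 CPM in controls and at 0.0918 to 0.548 in mutants, from 15 counts at most, and was not called (-1.52, SE 0.56, adjusted p 0.12).

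Chrnb3 encodes another accessory subunit, which assembles with the product of its neighbour Chrna6 on chromosome 8. Chrnb3 (27368711 to 27399730, plus strand) was at 0.952, 1.13, 0.685 and 0.807 CPM in controls and at 4.30, 1.56 and 2.03 CPM in mutants. All mutants lay above all controls, but mutant 6 was far above the other two. The counts were 9 to 15 in controls and 55, 17 and 26 in mutants. Chrnb3 rose 2.94-fold (log2 fold change 1.55, SE 0.41, adjusted p 0.0316). Without mutant 6 the log2 fold change was 1.00 and the call was lost (adjusted p 0.229), as it was without mutant 8 (0.0636), control 2 (0.0553) or control 3 (0.0901). Chrna6, on the minus strand with its end 3.48 kb beyond the end of Chrnb3, was under the count minimum, with 3, 0, 2 and 1 counts in controls and 10, 5 and 6 in mutants.

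The subunits of the main cortical nicotinic receptors were not called. Chrna7, which forms receptors on its own, was at 60.9, 94.8, 78.0 and 93.2 CPM in controls and at 92.0, 69.0 and 55.8 CPM in mutants, and these overlapped (log2 fold change -0.18, SE 0.18). Chrna4 and Chrnb2, which together form the abundant high-affinity receptor, had log2 fold changes of 0.12 (SE 0.14) and 0.26 (SE 0.20). Of the span of Chrnb2, 39.3% is shared with Adar on the opposite strand, and no source says whether reads were counted by strand. Chrna2, an alpha subunit of a few interneurons, and Chrna9, best known from hair cells, had 0.32 (SE 0.33) and 0.39 (SE 0.62).

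**Figure D3:**
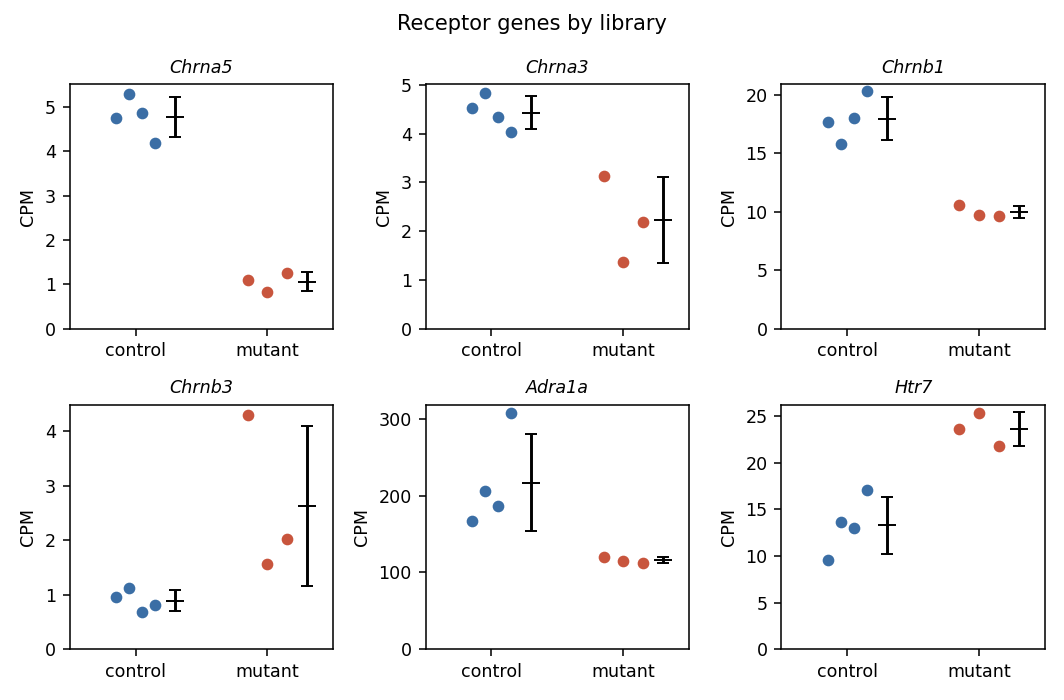
CPM (vertical axes, from 0) of the 5 called genes and of Chrna3 by library, with controls in blue and mutants in red. Bars beside the points give the mean and SD (4 controls, 3 mutants); the groups do not overlap in any of the 6 genes, and mutant 6 is the high point of Chrnb3.

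Among serotonin receptors 1 of 11 genes was called (9.09%, against 9.42% of all tested genes), none lower. Log2 fold changes were above 0 in 8 of 11, and in 7888 of the 16448 tested genes. The serotonin median was 0.36, and 0.12 without mutant 8. Whether the family differs from all genes was not tested. Htr7 encodes a receptor that raises cyclic AMP. It was at 9.60, 13.6, 12.9 and 17.0 CPM in controls and at 23.6, 25.3 and 21.7 CPM in mutants. Every mutant exceeded the highest control, control 4. Htr7 (chromosome 19, 35958734 to 36057507, minus strand) rose 1.77-fold (log2 fold change 0.83, SE 0.18, adjusted p 0.0132). The adjusted p was 0.0618 without mutant 6 and 0.0756 without mutant 7, at log2 fold changes not under 0.70 in any fit that left out 1 library.

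The other receptors that raise cyclic AMP, Htr4 and Htr6, had log2 fold changes of 0.36 (SE 0.18, adjusted p 0.262) and 0.61 (SE 0.25, adjusted p 0.168). Htr6 was at 2.10 to 2.82 CPM in controls and at 3.36 to 3.99 CPM in mutants, without overlap. Htr3a, the channel subunit that marks interneurons from the caudal ganglionic eminence, was at 3.65, 4.01, 4.57 and 3.87 CPM in controls and at 6.96, 4.96 and 6.96 CPM in mutants. Its groups did not overlap either, but it was not called (0.65, SE 0.22, adjusted p 0.0944), and 57% of its span is shared with Gm32335 on the other strand. Htr3b, its partner subunit, was under the count minimum with 0 to 11 counts.

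The receptors that act through phospholipase C, Htr2a and Htr2c, had log2 fold changes of 0.15 (SE 0.17) and 0.45 (SE 0.17, adjusted p 0.137). Htr2c was at 21.1, 32.1, 27.6 and 36.9 CPM in controls and at 35.8, 42.1 and 42.6 CPM in mutants. Only control 4 reached into the range of the mutants, and without control 4 Htr2c was called (adjusted p 0.0165), but not without any other 1 library, at adjusted p-values up to 0.350. Htr2c was also called in 4 of the 7 fits with other settings, limma-voom among them. Adjusted p-values in those 7 fits ran from 0.00413 to 0.138. The inhibitory receptors did not share a direction. Htr1a (-0.54), Htr1f (-0.73) and Htr5a (-0.26) had log2 fold changes below 0, Htr1b (0.16) and Htr1d (0.37) above 0, and none was called. Htr1f was at 33.5, 58.4, 41.5 and 104 CPM in controls and at 38.3, 33.5 and 35.6 CPM in mutants. Control 4 stood high among the controls, and the groups overlapped (SE 0.30, adjusted p 0.173). Htr1f was called in 3 of the 7 fits with other settings, among them the fit without controls 1 and 4 (adjusted p 0.00982) and that with an offset for gene length (0.0344), and had adjusted p-values up to 0.524 in the others. It was called in 0 of the 7 edgeR fits that left out 1 library, where the log2 fold change ran from -0.92 to -0.31 and the adjusted p from 0.0634 to 0.409.

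Adrenergic receptors respond to noradrenaline, and 1 of 7 genes was called (14.3%, against 9.42% of all tested genes). The family median was -0.13, and it was -0.29 without mutant 6 and -0.00080 without mutant 8. Adra1a, the receptor that couples to phospholipase C, was at 167, 206, 186 and 308 CPM in controls and at 120, 115 and 112 CPM in mutants. The mutants lay close together and under every control, and control 4 was the highest. Adra1a (chromosome 14, 66635251 to 66771168, plus strand) fell 1.87-fold (log2 fold change -0.90, SE 0.18, adjusted p 0.0089). Without control 4 the log2 fold change was -0.69 and the adjusted p 0.000408. Without mutant 7 or mutant 8 the adjusted p was 0.0578.

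The related receptor Adra1b was at 34.6, 36.0, 41.3 and 68.6 CPM in controls and at 32.5, 31.0 and 27.2 CPM in mutants, without overlap, and was not called (-0.58, SE 0.22, adjusted p 0.128). It was called in 3 of the 7 fits with other settings and in 0 of the 7 that left out 1 library. The third of this kind, Adra1d, had a log2 fold change of -0.13 (SE 0.29). The receptors that lower cyclic AMP, Adra2a and Adra2c, had 0.36 (SE 0.24) and 0.62 (SE 0.25, adjusted p 0.158). Adra2c was at 6.74, 7.03, 6.55 and 3.63 CPM in controls and at 7.35, 10.9 and 9.38 CPM in mutants. Its groups did not overlap, with control 4 the lowest. Adra2c was called in 2 of the 7 fits with other settings and in 0 of the 7 that left out 1 library. Of the beta receptors, Adrb1 was at 23.4 to 36.9 CPM in controls and at 27.8 to 31.3 CPM in mutants (0.12, SE 0.17), and Adrb3 had -0.45 (SE 0.32) with 46.9% of its span shared with Gm45470. Adra2b (0 to 15 counts) was under the minimum.

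No muscarinic receptor gene was called among 4, with 1 at an unadjusted p under 0.05 (22.5% of all tested genes) and a median of -0.31. That gene is Chrm4, which lowers cyclic AMP. It was at 6.58, 4.16, 5.63 and 3.79 CPM in controls and at 2.03, 2.48 and 3.36 CPM in mutants. The groups did not overlap, and the gene missed the threshold (-0.94, SE 0.29, adjusted p 0.0656). It was called in 6 of the 7 fits with other settings, such as DESeq2 (adjusted p 0.037) and limma-voom (0.0204), but in 1 of the 7 that left out 1 library (without control 4), with adjusted p-values up to 0.237 in the rest. Chrm3, which acts through phospholipase C, was at 278, 512, 447 and 846 CPM in controls and at 439, 349 and 398 CPM in mutants. Its controls spread by log2 1.60 between control 1 and control 4, and all mutants lay within their range (-0.40, SE 0.29). Chrm1 (0.05, SE 0.13) and Chrm2 (-0.22, SE 0.18) were not called either. Chrm5 had 0 counts in each control and 6, 4 and 3 in mutants, too few to be compared.

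No dopamine receptor gene was called among 3, and 0 of them had an unadjusted p under 0.05. Drd1, which raises cyclic AMP, was at 26.3, 25.7, 30.8 and 23.6 CPM in controls and at 27.4, 27.6 and 25.1 CPM in mutants. The groups overlapped throughout (log2 fold change 0.01, SE 0.13). Drd2, which lowers cyclic AMP, had -0.03 (SE 0.29). Drd4 was at 2.70, 1.74, 1.98 and 0.242 CPM in controls and at 0.861, 0.734 and 0.547 CPM in mutants. Control 4 was under all mutants, and without it Drd4 was called (-1.57, adjusted p 0.0159), against -1.21 (SE 0.60, adjusted p 0.259) with it. It was called in 0 of the 7 fits with other settings and in none of the other 6 that left out 1 library, at adjusted p-values up to 0.518. Drd3 (0 to 6 counts) and Drd5 (0 to 10 counts) were under the minimum. Drd1 and Drd2 are also markers of striatal projection neurons, and the list of 7 such markers had 1 called gene, Rgs9 (0.81), with sums of 110 to 193 CPM in controls and 191 to 245 CPM in mutants.

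Htr2b, Htr5b and Chrna10 were also among the 11 genes under the minimum. Htr2b, a serotonin receptor that acts through phospholipase C, had 0 counts in every library. Its whole span lies within Psmd1 on the other strand, so this 0 is no measure of its level. Htr5b had 1 to 6 counts, and Chrna10 had 2 counts in mutant 7 and 0 elsewhere. Drd5, given above, shares 48.6% of its span with Gm26560.

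Levels were compared between genes first as CPM per kb of merged exons, which in controls ran from 0.14 for Chrnb3 to 83.3 for Chrm3. Chrm3 was highest at 44.5 to 135 CPM per kb in controls, above the range of any other receptor gene. Adra1a (24.8 ± 7.19, SD, n = 4), Htr1f (23.0 ± 12.2) and Chrna7 (18.1 ± 3.50) followed, and these neighbours in the order do not differ beyond their spread. Chrm2, Htr2a, Chrm1, Adrb1 and Drd1 came between 7.33 and 10.9, again within each other's spread. In mutants Adra1a (13.3 ± 0.471, SD, n = 3) was at the level of Htr1f (13.9 ± 0.923). Chrna5 ranked 22 of 35 in controls at 1.53 ± 0.144 CPM per kb of exons.

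Nuclear RNA holds introns, and the zeros of nested genes described above extend to genes that lie in the introns of others, so levels were also set per kb of the gene span that no other gene covers, a scale chosen after seeing the data. The order then changed. Drd1 came first at 5.88 ± 0.676 CPM per kb of unshared span in controls (5.21 to 6.82), above every library of any other receptor gene. Chrm4 (3.50 ± 0.903), Chrm1 (2.80 ± 0.285) and Adrb1 (2.54 ± 0.575) followed and do not differ beyond their spread. Adra1a was at rank 7 (1.60 ± 0.462), Chrm3 at rank 11 (1.12 ± 0.511) and Htr1f at rank 21 (0.328 ± 0.174). The lowest was Chrna9 at 0.0168 ± 0.0124. Levels of long genes such as Chrm3 and Htr1f thus rank high per kb of exons and lower per kb of span.

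**Figure D4:**
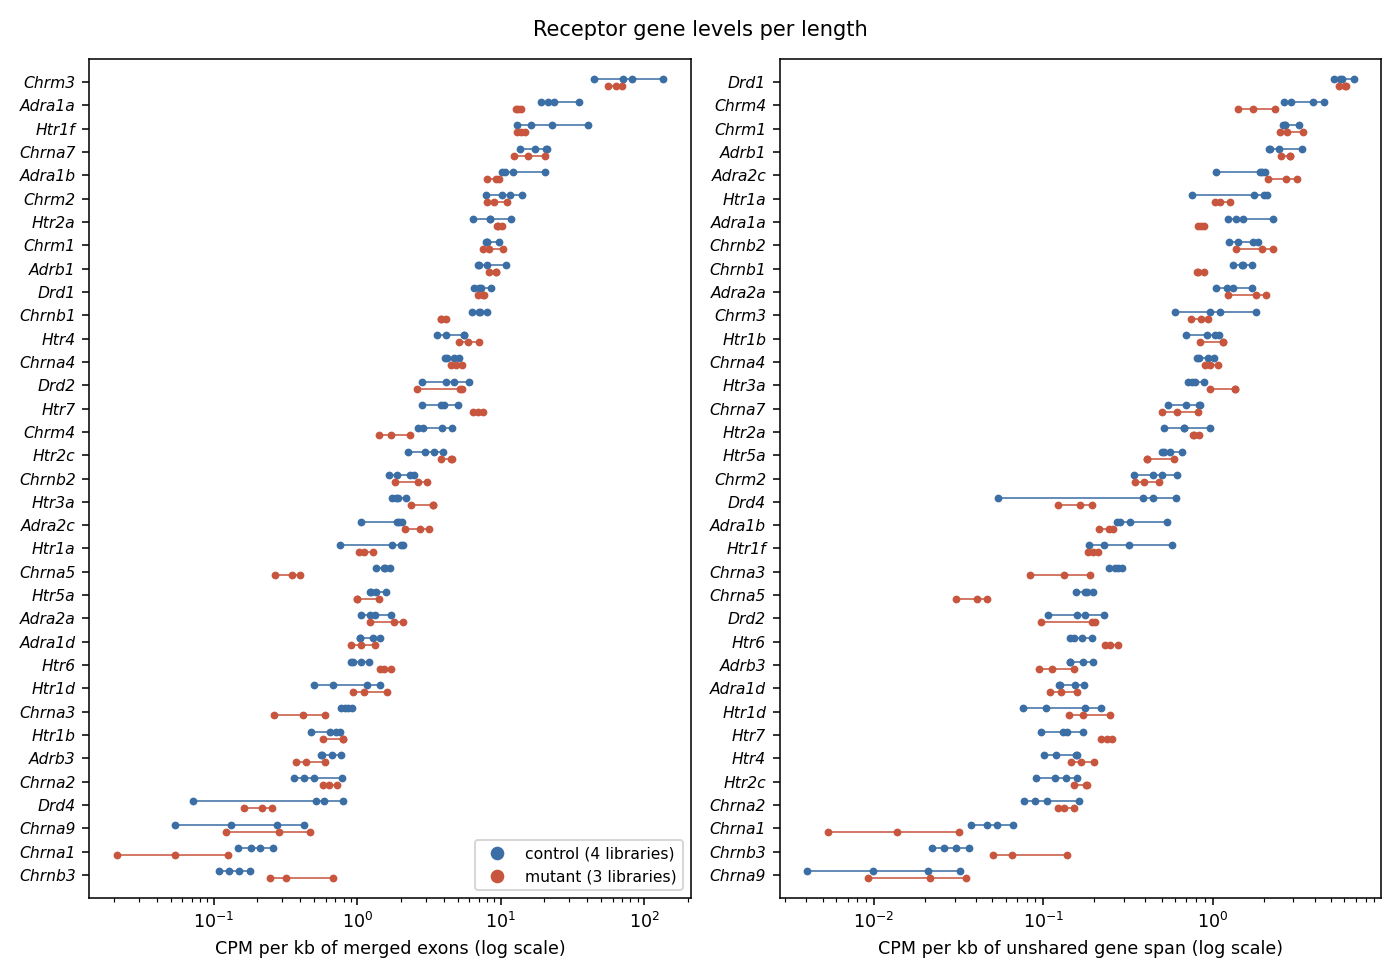
Levels of the 35 receptor genes in the 4 control (blue) and 3 mutant (red) libraries, as CPM per kb of merged exons (left) and of unshared gene span (right), on log axes, ordered by the control mean, with lines from the lowest to the highest library. Chrm3 is at the top on the left and Drd1 on the right, and on both scales every mutant lies under every control for Chrna5.

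Genes around these receptors were followed in 6 further lists, beside the 9.42% of all tested genes that were called. Of 14 tested genes of monoamine and acetylcholine synthesis and transport 4 were called, 2 in each direction, with a median of -0.05. Tph2, which makes serotonin in neurons, fell from 4.12, 4.16, 3.65 and 4.52 CPM in controls to 1.02, 1.01 and 1.17 CPM in mutants (log2 fold change -1.93, SE 0.27, adjusted p 0.000972). These levels are low, but the groups stood far apart. Chat, which makes acetylcholine and is made by some VIP neurons, fell from 4.80 ± 1.52 to 1.56 ± 1.10 CPM (-1.64, adjusted p 0.0428). Slc5a7, which takes up choline for that synthesis, rose from 3.22 ± 0.50 to 7.56 ± 2.25 CPM (1.23, adjusted p 0.00933). Bche, a cholinesterase, rose from 13.9 ± 4.56 to 28.2 ± 2.29 CPM (1.02, adjusted p 0.0155). Chat lost its call without any 1 of controls 2 and 3 and mutants 6 and 8, at adjusted p-values up to 0.129, and Bche without any 1 of the 3 mutants, up to 0.0792. Slc5a7 lost it without mutant 7 (0.0675).

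Of 8 tested accessory proteins of nicotinic receptors 3 were called (37.5%, against 9.42% of all tested genes), 1 lower and 2 higher. Their median was 0.10. Lynx1, a toxin-like protein of the cell surface that damps nicotinic receptors, was at 139, 108, 126 and 112 CPM in controls and at 42.5, 51.7 and 64.1 CPM in mutants. All mutants lay under all controls, and Lynx1 fell by 1.20 on the log2 scale (SE 0.15, adjusted p 0.000378). Its relatives Lypd6 and Ly6h rose, from 61.7 ± 5.96 to 108 ± 12.6 CPM (0.81, SE 0.12, adjusted p 0.00104) and from 173 ± 37.3 to 274 ± 8.80 CPM (0.67, SE 0.16, adjusted p 0.0199). Lynx1 and Lypd6 were called in all 14 other fits, but the call of Ly6h was lost, at adjusted p-values up to 0.0890, on leaving out control 2, control 3 or a mutant.

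Signalling proteins and the histamine receptors came next. The called share was 10% for G alpha subunits and 12.5% for effectors, near the 9.42% of all tested genes. Of 10 tested G alpha subunits 1 was called, Gna14, which fell with few counts (2.08 ± 0.941 to 0.448 ± 0.439 CPM, -2.15, adjusted p 0.0469) and with control 1 inside the range of the mutants. It lost its call without control 2, control 3, mutant 7 or mutant 8, at adjusted p-values up to 0.192. Of 16 tested effectors 2 were called. Kcnj9, a subunit of the potassium channels that inhibitory receptors open, was at 150 ± 15.8 CPM in controls and fell to 56.0 ± 9.33 CPM in mutants (-1.42, SE 0.14, adjusted p 7.15e-05). Adcy7, an adenylyl cyclase, rose from 28.3 ± 2.04 to 40.7 ± 4.96 CPM (0.52, SE 0.13, adjusted p 0.0213). Adcy7 lost its call without control 2, control 3, mutant 6 or mutant 7, at adjusted p-values up to 0.135. Of the 7 kinases and arrestins that silence receptors 0 were called in edgeR, 6 had log2 fold changes above 0, and 2 had an unadjusted p under 0.05, a share near the 22.5% of all tested genes. Of 3 tested histamine receptors Hrh3, which lowers cyclic AMP, fell from 20.5 ± 1.26 to 7.23 ± 1.52 CPM (-1.51, SE 0.18, adjusted p 0.000264). It shares 31.6% of its span with Gm17180. Kcnj9 and Hrh3 were called in every other fit.

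**Figure D5:**
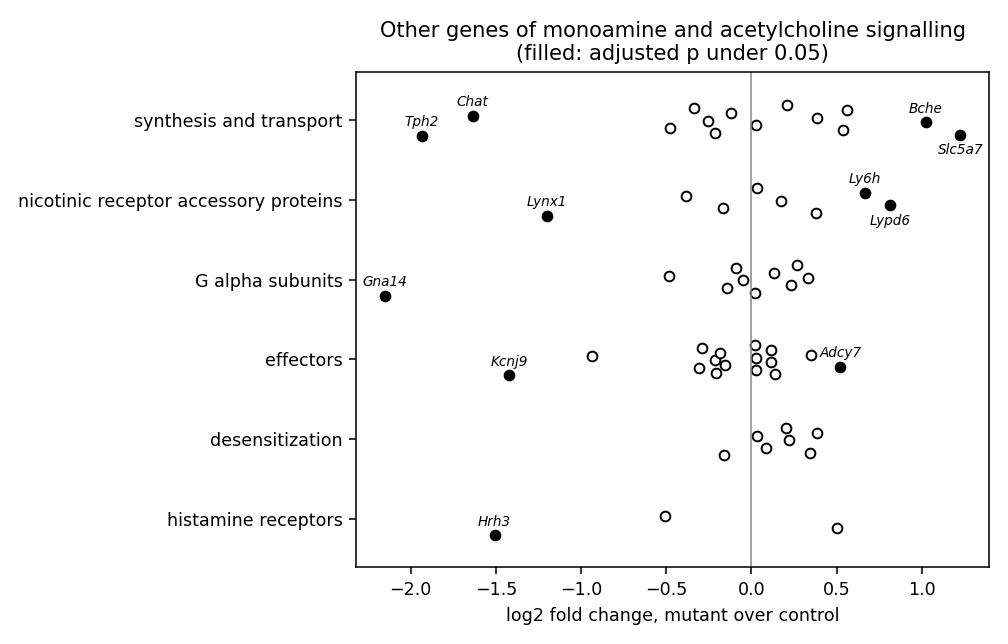
Log2 fold change of mutant over control (horizontal axis) for the tested genes of 6 lists around the receptors, 1 point a gene, spread vertically only for legibility. Filled points mark the called genes, 6 of them lower (Tph2, Chat, Lynx1, Gna14, Kcnj9 and Hrh3) and 5 higher.

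Values of the class markers stand beside these results. Pvalb fell from 41.0 ± 5.91 to 1.81 ± 0.683 CPM and Sst rose from 281 ± 49.4 to 502 ± 68.5 CPM. Vip (-0.27, adjusted p 0.469) and Lamp5 (-0.53, adjusted p 0.107) were not called. In the VIP list 3 of 8 genes were called higher and 2 lower, Chat among them, and in the LAMP5 list 1 of 7 was called higher and 1 lower. An unadjusted p under 0.05 in edgeR was found for 5 of the 8 and 6 of the 7, against 22.5% of all tested genes. Log2 fold changes in the LAMP5 list were above 0 in 3 genes and below 0 in 4. Over all tested genes 4.63% were called higher and 4.78% lower. Of 8 glutamatergic markers 0 were called in edgeR, with 0 at an unadjusted p under 0.05, and their sum was 241 to 343 CPM in controls and 220 to 276 CPM in mutants. Among 6 oligodendrocyte markers 1 was called (Mog, higher), among 5 tested astrocyte markers 1 (Slc4a4, lower), and among 5 microglial and 5 endothelial markers 0, with 1 and 0 at an unadjusted p under 0.05. The part of these shifts in the receptor results was not tested.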

How the data were processed

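Nuclear RNA of fluorescent nuclei sorted from mouse cortex was sequenced as paired reads after SMART-Seq v4 and Nextera XT preparation, per the labels' protocols. The deposited values are raw counts of reads per gene. Bowtie2 2.5.3 and the build mm10 (GRCm38) are named in the submitters' processing notes; the counting program and its use of strand and introns are not given in the sources used here. PCR reads without molecular identifiers are not independent molecules, so limits set by counts cover counting error only. All 55450 gene identifiers were found in GENCODE M21, which gave symbols and coordinates. The table of mutant 10 is a repeat of that of mutant 7, and the design with 4 mutants was reduced to 3.

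Genes were filtered with filterByExpr (least count 10, least total 15), scaled by TMM and tested with edgeR 4.0.16 in R 4.3.3 (robust quasi-likelihood, genotype as the only term, two-sided, Benjamini-Hochberg adjustment over 16448 genes). All 35 receptor genes passed the filter. The SE is the log2 fold change divided by the root of F. Alternatives were RLE scaling, DESeq2 1.42.0, limma-voom 3.58.1 with sample weights, no filter, 1 surrogate variable (sva 3.50.0), no controls 1 and 4, and the removal of each library. An offset from a loess of each library on gene length (span 0.5) and levels per kb of unshared gene span were chosen after seeing the data. Fits were also run on simulated counts drawn without a trend in gene length, so that check does not cover the length trend of the controls. Members and lists were chosen with earlier results of these data known. Every receptor gene over the count minimum is named, with library values for called genes and the uncalled gene most abundant per kb of exons in each family, and so are called genes of the related lists, Pvalb, Sst, Vip, Lamp5 and Thra. Others that missed the threshold and are given by library were chosen after their values were seen. Of the genes under the count minimum, 1 is not reported here.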

Additional observations from a re-analysis of the deposited data

Results flagged for a closer look

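In 2 of the 35 receptor genes 1 control lay far from the other 3, by the gap to its nearest neighbour over the range of the controls, against Dixon's 95% critical value. Chance alone flags about 1 in 20 such values, or 1.75 of 35. For Adra2c the CPM of control 4 was 3.63, under the other controls at 6.55 to 7.03. For Chrm1 it was 62.7, over the others at 50.8 to 52.3. Both flags are for control 4. The 3 mutants are too few for this rule.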

How the results depend on the processing

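No paired analysis was possible because controls and mutants share no replicate numbers in the labels. The 5 called receptor genes kept their sign in all 70 combinations of gene and fit and lost their call in 8, each on removal of 1 library. The count of 5 called receptor genes was 13 with 1 surrogate variable, 11 with the length offset, 10 with limma-voom, 9 without controls 1 and 4 together and 2 with an absolute log2 fold change over 1. Without 1 library it ran from 3 (mutant 7 or 8) to 9 (control 4). Chrm3 and Htr3a were called only with 1 surrogate variable, and Chrna1 only with limma-voom. Calls over all genes, 1549, were 3725, 2703, 3134, 2778 and 641 under the same 5 settings and 734 to 2347 without 1 library (mutant 7 left out 734, mutant 6 766, mutant 8 816, control 3 1016, control 4 2347). Of all tested genes 22.6% were called with 1 surrogate variable and 16.4% with the length offset. With limma-voom it was 19.1%, and without controls 1 and 4 together 16.7%. Without control 1, 5 receptor genes and 12.5% of all genes were called, and with no filter 6 and 6.28%. The nicotinic median of -0.03 was -0.25 without controls 1 and 4 together, and above 0 without control 1 (0.19), control 2 (0.08) or control 3 (0.14), fits in which Chrna1 left the tested genes; without 1 library it ran from -0.11 to 0.19. The serotonin median of 0.36 ran from 0.12 (without mutant 8) to 0.44 (without control 2), and the muscarinic median of -0.31 from -0.47 (without control 1) to -0.0698 (without control 4). The adrenergic median of -0.13 ran from -0.29 (without mutant 6) to -0.00080 (without mutant 8). Thra was called with 1 surrogate variable (-0.38), DESeq2 (-0.39), the length offset (-0.41), limma-voom (-0.43) and without controls 1 and 4 together (-0.48). Without 1 library it ran from -0.46 to -0.31 and was called in 2 of 7 fits, those without control 1 or control 4. The fits that left out a library had fewer samples; the cause of the other shifts was not tested. Ranks per length changed with the length used, as given above. At the lowest total 1 count is 0.093 CPM, which limits Chrna1, Chrna9, Chrnb3, Drd4 and the 11 genes under the minimum.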
